A study of Mus musculus with 24 samples.

Results

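The genes described here encode the lipid-export machinery of the visceral endoderm: 9 apolipoproteins (Apoa1, Apoa2, Apoa4, Apob, Apoc1, Apoc2, Apoc3, Apoe and Apom) and Mttp, the microsomal triglyceride transfer protein. They were chosen by symbol, and all 10 had a row in both the yolk sac and the embryo table, out of 55421 genes in each. The visceral endoderm is the epithelium that covers the mouse yolk sac. Before the placenta and the liver work, it takes up maternal lipid, packs it into lipoprotein particles and secretes them towards the embryo. In that process ApoB is the scaffold of the particle, MTTP loads lipid onto it in the endoplasmic reticulum, and the smaller apolipoproteins join or leave particles and bind enzymes and receptors. In mice, loss of Apob or Mttp is known to disturb lipid export from the yolk sac and to end development at mid-gestation.

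Messenger RNA was sequenced from whole embryos and from yolk sacs of C57BL/6 mice at embryonic day 9.5. The mice came from a Setd2 null line or a Setd2 catalytic dead (CD) line. SETD2 trimethylates lysine 36 of histone H3, and the names of the alleles mean that the null allele should remove the protein and the CD allele should leave it without enzyme activity. Within each line, homozygotes (HO), heterozygotes (HE) and wild types (WT) were sampled with 2 libraries per genotype and tissue, 24 libraries in all. The sources used here do not say which part of Setd2 each allele alters or whether the replicates came from separate litters. The p-values therefore measure only the spread between these libraries, which may be technical in part. Library totals were 16400137 to 22113787 counts in yolk sacs and 23414255 to 27674831 in embryos.

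Some facts of the series touch the results below. Setd2 itself followed the genotype in null embryos (93.3 and 104 CPM in HO, 169 and 157 CPM in HE, 232 and 229 CPM in WT, where CPM is the count scaled to the size of the library with TMM factors). In null yolk sacs it did not: HO libraries held 75.5 and 78.9 CPM, HE libraries 114 and 119.6 CPM, and the libraries labelled WT 102 and 114 CPM, against 178 and 190.2 CPM in the WT yolk sacs of the CD line. The null yolk sac reference is therefore called the libraries labelled WT throughout. The CD homozygotes and their WT differed in sex in both tissues by Y-linked transcripts, and CD HE replicate 2 of the yolk sac held both male and female transcripts. CD WT replicate 2 of the embryo stood apart by visceral endoderm transcripts, so the members' embryo values are given for each library and their fold changes with and without it.

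Several members lie side by side in the genome (mm10, GENCODE M21 gene bounds). On chromosome 9, Apoa1 (46228580 to 46230466, plus strand), Apoc3 (46232933 to 46235636, minus strand) and Apoa4 (46240696 to 46243459, plus strand) form one cluster. On chromosome 7, Apoc2 (19671579 to 19677941), Apoc1 (19689481 to 19692660) and Apoe (19696109 to 19699188) form another, all on the minus strand. Apoa2 lies on chromosome 1 (171225054 to 171226379, plus strand), Apob on chromosome 12 (7977648 to 8016835, plus strand), Apom on chromosome 17 (35128997 to 35132050, minus strand) and Mttp on chromosome 3 (138089854 to 138144968, minus strand). Of the 10, 3 overlap other annotated genes in exons. Apoa4 shares 634 of its 1815 exon bases with Gm47528 and Mttp shares 457 of 6206 with Trmt10a, both on the opposite strand. Apoc2 shares 646 of 813 with Gm44805 on the same strand. The sources used here do not say whether strand was used in counting, so Apoa4 and Mttp are uncertain to that extent. For Apoc2 and Gm44805, strand cannot separate the genes. How reads shared between genes were counted is not said either, so the Apoc2 counts may be too low. Gm44805 held 0 counts in every library, Gm47528 held 15 to 73 counts per yolk sac library and Trmt10a 325 to 563.

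The promoters of 8 of the 10 members were found in the RefSeq promoter table (GRCm38.p6, 300 bases around the RefSeq start). The 4 shown include that of Apoa4, which had the lowest fold change of the 10 in CD yolk sacs. The others are those of Apob, Apom and Mttp, which were lower by CPM in all 4 HO yolk sacs than in all 8 others. All 4 promoters run 5′ to 3′ along the gene, and capitals mark matches to the motifs named after them.
Apob, chr12:7977427-7977726, plus strand: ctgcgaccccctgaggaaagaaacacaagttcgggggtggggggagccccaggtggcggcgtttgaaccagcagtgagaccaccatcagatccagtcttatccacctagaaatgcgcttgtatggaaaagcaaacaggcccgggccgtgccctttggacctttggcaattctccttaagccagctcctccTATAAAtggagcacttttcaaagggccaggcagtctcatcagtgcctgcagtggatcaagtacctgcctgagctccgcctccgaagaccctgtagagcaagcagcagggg
Apom, chr17:35131752-35132051, minus strand: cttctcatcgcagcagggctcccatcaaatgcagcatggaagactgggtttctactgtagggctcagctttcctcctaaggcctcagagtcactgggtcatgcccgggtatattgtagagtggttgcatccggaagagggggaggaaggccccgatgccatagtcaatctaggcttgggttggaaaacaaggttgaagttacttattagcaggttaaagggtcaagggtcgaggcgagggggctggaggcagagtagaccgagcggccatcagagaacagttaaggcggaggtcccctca
Mttp, chr3:138143369-138143668, minus strand: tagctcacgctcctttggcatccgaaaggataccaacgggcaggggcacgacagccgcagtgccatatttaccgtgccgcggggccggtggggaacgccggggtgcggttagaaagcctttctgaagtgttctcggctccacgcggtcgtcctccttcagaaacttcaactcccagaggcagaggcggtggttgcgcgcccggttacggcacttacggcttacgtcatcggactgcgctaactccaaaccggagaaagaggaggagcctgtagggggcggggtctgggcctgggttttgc
Apoa4, chr9:46240594-46240893, plus strand: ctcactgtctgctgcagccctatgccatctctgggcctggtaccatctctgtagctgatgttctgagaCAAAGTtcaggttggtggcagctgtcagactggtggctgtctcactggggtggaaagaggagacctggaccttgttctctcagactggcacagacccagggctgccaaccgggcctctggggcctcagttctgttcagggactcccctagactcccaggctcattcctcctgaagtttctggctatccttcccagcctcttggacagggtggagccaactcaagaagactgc
The motifs searched on both strands were TATAAA (the TATA box), GTTAAT (part of the HNF1 site), CAAAGT (a core of HNF4 sites), TGTTTAC (a FOXA site) and AGATAA (bound by factors of the GATA family), with no overlap between them in these matches. The Apob promoter held TATAAA from base -60 to -55 relative to the start, a motif found in 14.2% of the 27025 promoters of that length. The Apoa4 promoter held CAAAGT from -182 to -177, found in 14.3% of all promoters. The promoters of Apom and Mttp held none of the 5 letter strings. Relative to the GENCODE 5′ end, in genome coordinates, the RefSeq start lies at -1550 for Mttp and -249 for Apom, both on the minus strand, and at 148 for Apoa4 and 29 for Apob, both on the plus strand. All 4 are inside the GENCODE gene bounds, so these windows are around internal starts. Among the matched members, the TATA box string and the HNF4 string were each in 2 of 8, the HNF1 and FOXA strings each in 1, and the GATA string in 0. Over all promoters the HNF1 string was in 7.2%, the FOXA string in 3.55% and the GATA string in 11.4%. These matches describe the letters only.

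The 7 members that could be tested in embryos were far higher in WT yolk sacs than in WT embryos. In the joint fit of 24 libraries, 14720 of 20543 genes (71.7%) differed between the tissues and 34.2% were higher in the yolk sac, and all 7 were among those higher. Their log2 fold changes ran between 5.50 for Mttp (SE 0.17, edgeR adjusted p = 1.38e-15) and 9.02 for Apoa1 (SE 0.51, edgeR adjusted p = 6.99e-12), where the median over all genes tested was -0.08. Apoa4, Apoc2 and Apoc3 did not pass the filter on low counts in embryos. They entered the joint fit through the yolk sacs alone and so could be called higher there but not lower; their counts in the 4 WT embryos were 0 to 22 for Apoa4, 0 to 1 for Apoc2 and 0 to 8 for Apoc3, and their fitted fold changes are not used. Without embryo CD WT replicate 2 the 7 stayed called, with Apob at 9.71 in place of 8.57 and Apoa1 at 10.20 in place of 9.02. Together the 10 genes took 1.65 to 2.498% of all counts in yolk sac libraries. In 11 of the 12 embryo libraries they took 0.00611 to 0.0117%, and in CD WT replicate 2 they took 0.0538%.

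**Figure D1:**
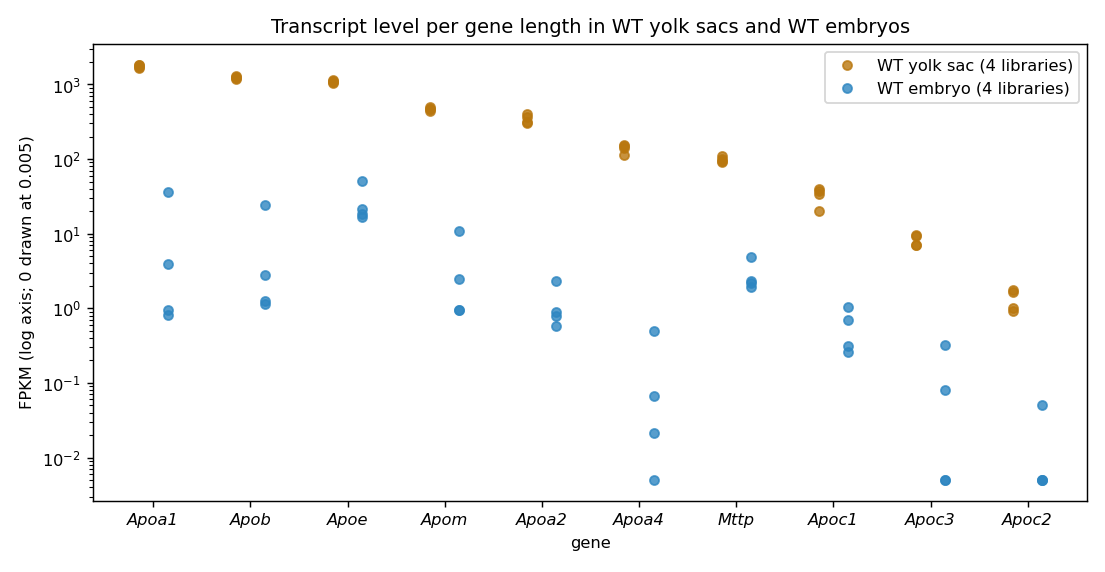
Level per gene length (FPKM, log axis) of the 10 genes in the 4 WT yolk sac libraries (left points of each pair) and the 4 WT embryo libraries (right points), with values of 0 drawn at 0.005. Apoa1, Apob and Apoe reach 1058 FPKM or more in each yolk sac library, and the highest embryo point of each gene is CD WT replicate 2.

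Levels of different genes were compared as FPKM, counts per length of gene model and library total, which the authors deposited beside the counts. In WT yolk sacs (mean ± SD, n = 4 libraries of both lines, the null ones as labelled) the order was Apoa1 at 1767 ± 76.5 FPKM, Apob at 1235 ± 43.4 FPKM, Apoe at 1098 ± 39.7 FPKM, Apom at 470.5 ± 27.5 FPKM and Apoa2 at 347 ± 42.96 FPKM. Apoa4 followed at 139 ± 19.1 FPKM, then Mttp at 99.8 ± 8.87 FPKM and Apoc1 at 32.96 ± 8.75 FPKM. Last came Apoc3 at 8.21 ± 1.37 FPKM and Apoc2 at 1.33 ± 0.426 FPKM. The Apoc2 value may be too low, given its overlap with Gm44805. No neighbours in that order overlapped among the 4 libraries, the closest being Apoa4 (lowest 113 FPKM) and Mttp (highest 112 FPKM). In HO yolk sacs Apoa4 fell behind Mttp in mean level, at 64.7 ± 27.7 FPKM against 74.9 ± 7.37 FPKM for Mttp, but their libraries overlapped (39.4 to 104 FPKM for Apoa4, 67.5 to 84.5 FPKM for Mttp). The WT embryo order differed: Apoe was highest, with 16.8 to 51.0 FPKM, and Apoc2 was listed at 0 in 3 of 4 WT libraries.

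In homozygous yolk sacs some of the lipid-export transcripts fell in each line, and the others did not pass the test. In the null line, 4 of the 10 members fell (Apoa4, Apob, Apoc1 and Apom) and 0 rose, where 3.97% of the 17755 genes tested fell, 2.3% rose and 6.27% changed in either direction. In the CD line, 2 of the 10 fell (Apoa4 and Apoe) and 0 rose, where 1.89% of genes fell, 1.27% rose and 3.15% changed. All 10 fold changes were below 0 in the null line, with a median of -0.48 against 0.02 over all genes, and 9 of 10 in the CD line, with a median of -0.43 against 0.01. These are bulk tissues, in which fewer cells of a type and less RNA per cell cannot be told apart.

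**Figure D2:**
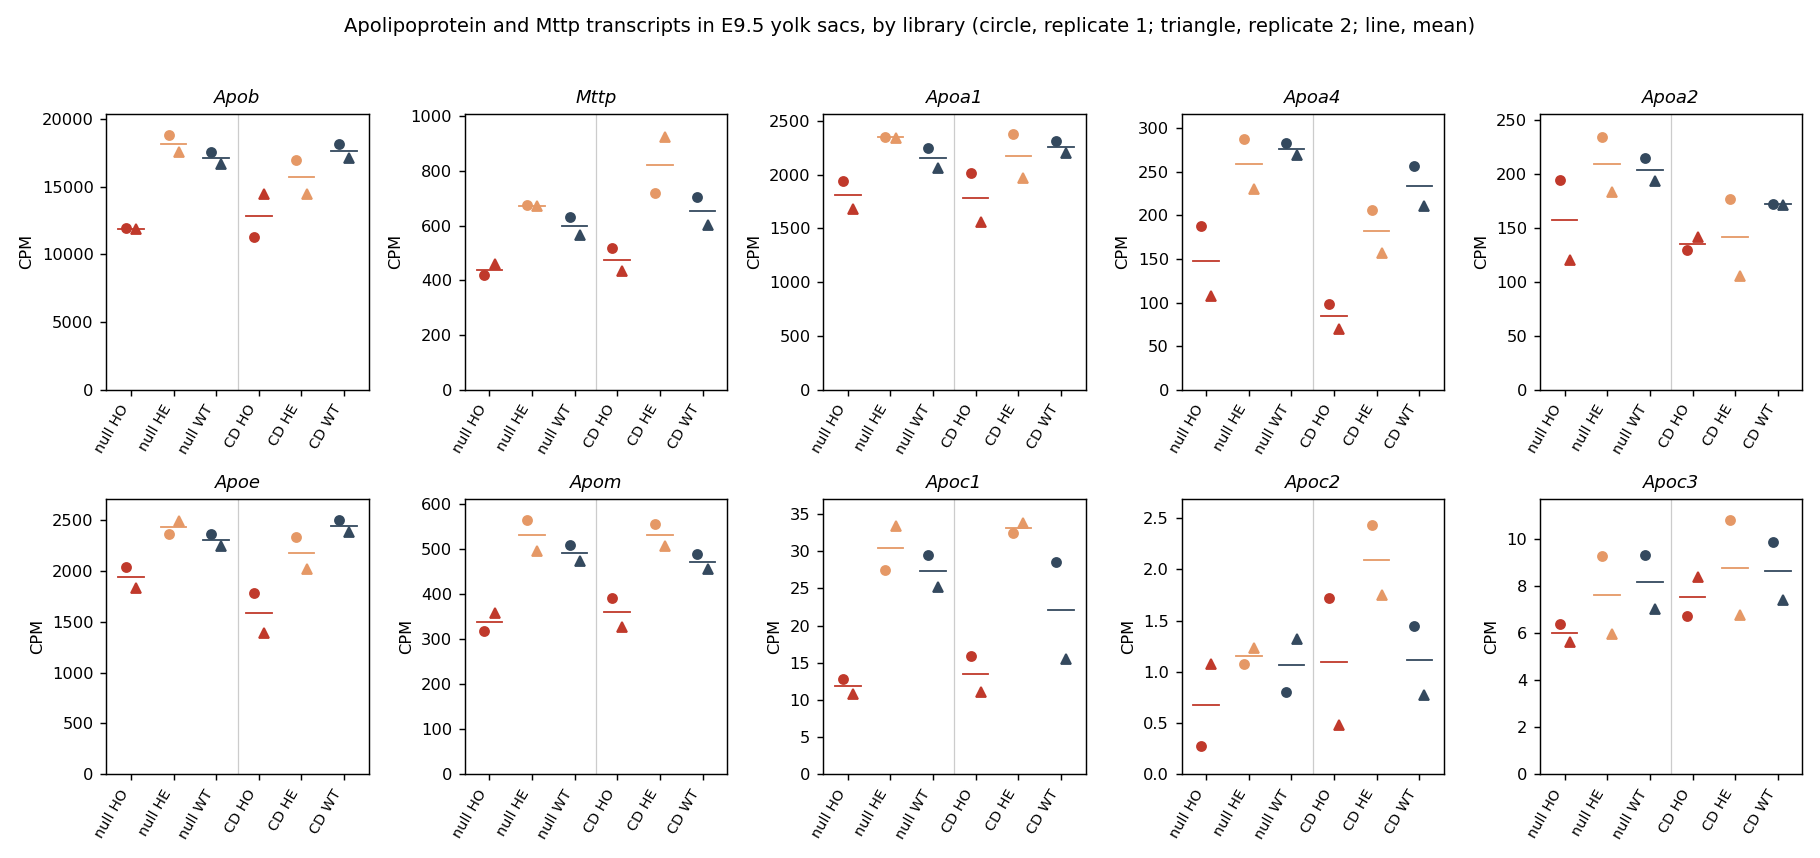
CPM of the 10 genes in each of the 12 yolk sac libraries (linear axes from 0; circle, replicate 1; triangle, replicate 2; horizontal line, mean of 2; red HO, orange HE, blue WT, the null WT as labelled). For Apob, Apom and Mttp the 4 HO points lie under the other 8, and for Apoa2, Apoc2 and Apoc3 the genotypes overlap.

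The scaffold and the lipid loader came first. Apob, the non-exchangeable protein around which the particle forms, had 11929 and 11868 CPM in null HO yolk sacs, 18842 and 17546 CPM in HE, and 17539 and 16664 CPM in the libraries labelled WT. CD yolk sacs held 11263 and 14454 CPM in HO, 16964 and 14478 CPM in HE, and 18174 and 17111 CPM in WT. By CPM every HO library lay under every HE and WT library, the closest pair being CD HO replicate 2 and CD HE replicate 2. In FPKM, which has no TMM scaling, that pair was reversed, at 1058 and 1030 FPKM. The change was -0.52 in the null line (SE 0.13, edgeR adjusted p = 0.0374), which passed the threshold of 0.05, and -0.46 in the CD line (SE 0.13, edgeR adjusted p = 0.0819), which did not. Apob alone made up 1.14 to 1.47% of all counts in HO yolk sacs, 1.44 to 1.86% in HE and 1.66 to 1.79% in WT.

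Mttp, whose product transfers triglyceride to nascent ApoB, had 418 and 461 CPM in null HO yolk sacs, 674 and 673 CPM in HE, and 629.5 and 566 CPM in the libraries labelled WT. The values in CD yolk sacs were 517 and 433 CPM in HO, 721 and 925 CPM in HE, and 705 and 602 CPM in WT. The 4 HO libraries were again below all 8 others. The change was -0.44 in the null line (SE 0.14, edgeR adjusted p = 0.0774) and -0.46 in the CD line (SE 0.14, edgeR adjusted p = 0.0869), and neither passed. Trmt10a, which overlaps Mttp, had changes of -0.24 (edgeR adjusted p = 0.442) and -0.20 (edgeR adjusted p = 0.542) at 325 to 563 counts per library, against 7249 to 18017 counts of Mttp.

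Among the proteins of high-density particles, Apom changed in the same range. Apom, a carrier of sphingosine-1-phosphate, had 318 and 357 CPM in null HO yolk sacs, 565 and 495 CPM in HE, and 508 and 472 CPM in the libraries labelled WT. Its CD values were 391.9 and 326 CPM in HO, 556 and 507 CPM in HE, and 489 and 455 CPM in WT. The HO libraries did not overlap the others in either line. It fell in the null line (-0.54, SE 0.12, edgeR adjusted p = 0.0197) and did not pass in the CD line (-0.39, SE 0.12, edgeR adjusted p = 0.0863). By CPM, Apob, Apom and Mttp were thus the 3 of 10 members with all 4 HO yolk sacs under the other 8. Of the genes tested, 7.17% showed that pattern. In FPKM it did not hold for Apob. The opposite pattern by CPM was shown by 0 of 10 members (6.78% of genes).

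Apoa1, the main structural protein of high-density particles and the most abundant member per gene length, had 1940.5 and 1679.6 CPM in null HO yolk sacs, 2351 and 2342 CPM in HE, and 2250.1 and 2057 CPM in the libraries labelled WT. CD libraries gave 2012 and 1556 CPM in HO, 2376 and 1965 CPM in HE, and 2311 and 2202 CPM in WT. HO lay under WT within each line, while CD HO replicate 1 exceeded CD HE replicate 2. The changes of -0.25 (SE 0.14, edgeR adjusted p = 0.319) and -0.34 (SE 0.14, edgeR adjusted p = 0.194) did not pass. Apoa2, the second protein of these particles, ran between 120.1 and 194 CPM in the 4 HO libraries, 106 and 234 CPM in HE and 171 and 214 CPM in WT, with overlap between genotypes and no call in either line.

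Apoa4 had the largest fall in CD homozygotes. It encodes an exchangeable apolipoprotein of triglyceride-rich particles, and its gene lies beside Apoa1 and Apoc3. It had 188 and 107 CPM in null HO yolk sacs, 287 and 231 CPM in HE, and 283 and 269 CPM in the libraries labelled WT. For the CD line the values were 98.2 and 70.2 CPM in HO, 207 and 157 CPM in HE, and 257 and 211 CPM in WT. HO and WT did not overlap in either line, but null HO replicate 1 exceeded CD HE replicate 2. The fall was -0.90 in the null line (SE 0.24, edgeR adjusted p = 0.045) and -1.47 in the CD line (SE 0.24, edgeR adjusted p = 0.00954), which left 53.5% and 36.03% of the WT level by the fit. The overlapping Gm47528 had changes of -1.23 (edgeR adjusted p = 0.14) and -0.98 (edgeR adjusted p = 0.248) at 15 to 73 counts, against 1174 to 5865 counts of Apoa4.

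Set against its neighbour Apoa1 within each library, Apoa4 stood at 6.61 and 4.34% of the Apoa1 FPKM in null HO yolk sacs, 8.32 and 6.70% in HE, and 8.57 and 8.91% in the libraries labelled WT. The CD line gave 3.32 and 3.07% in HO, 5.92 and 5.44% in HE, and 7.57 and 6.53% in WT. HO lay below HE and WT within each line, narrowly in the null line, where HO replicate 1 stood at 6.61% and HE replicate 2 at 6.70%. Whether the 2 genes changed unequally was not tested. Apoc3, between them, encodes an inhibitor of lipoprotein lipase and was low in all yolk sacs, with 5.61 to 8.37 CPM in HO, 5.97 to 10.8 CPM in HE and 7.02 to 9.86 CPM in WT. It had changes of -0.44 (SE 0.29, edgeR adjusted p = 0.418) and -0.19 (SE 0.29, edgeR adjusted p = 0.759).

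In the chromosome 7 cluster, Apoe, the ligand of the low-density lipoprotein receptor family, had 2039 and 1832 CPM in null HO yolk sacs, 2366 and 2488 CPM in HE, and 2363 and 2241 CPM in the libraries labelled WT. CD yolk sacs had 1779 and 1387 CPM in HO, 2336 and 2021 CPM in HE, and 2501 and 2378 CPM in WT. HO libraries lay under HE and WT within each line, and the highest of them, null HO replicate 1, was above CD HE replicate 2. Apoe fell in the CD line (-0.62, SE 0.13, edgeR adjusted p = 0.0251) and did not pass in the null line (-0.25, SE 0.13, edgeR adjusted p = 0.279).

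Apoc1, a small exchangeable apolipoprotein encoded beside Apoe, had 12.8 and 10.8 CPM in null HO yolk sacs, 27.4 and 33.4 CPM in HE, and 29.5 and 25.2 CPM in the libraries labelled WT. Among CD yolk sacs it had 15.9 and 11.1 CPM in HO, 32.5 and 33.8 CPM in HE, and 28.5 and 15.6 CPM in WT. CD WT replicate 2 lay between the CD HO libraries, so the CD groups overlapped. It fell in the null line (-1.21, SE 0.26, edgeR adjusted p = 0.0182) and did not pass in the CD line (-0.70, SE 0.26, edgeR adjusted p = 0.15). Relative to Apoe, its FPKM was 1.81 and 1.69% in null HO, 3.33 and 3.85% in HE and 3.58 and 3.23% in the libraries labelled WT. The CD line gave 2.57 and 2.30% in HO, 3.995 and 4.81% in HE, and 3.28 and 1.88% in WT, with CD WT replicate 2 below both HO libraries. Apoc2, the activator of lipoprotein lipase, was counted close to the detection limit, with 6 to 37 counts in HO, 22 to 54 in HE and 16 to 29 in WT. These counts may be too low, given its overlap with Gm44805. Its changes of -0.67 (SE 0.69) and 0.02 (SE 0.65) carried errors as large as themselves.

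**Figure D3:**
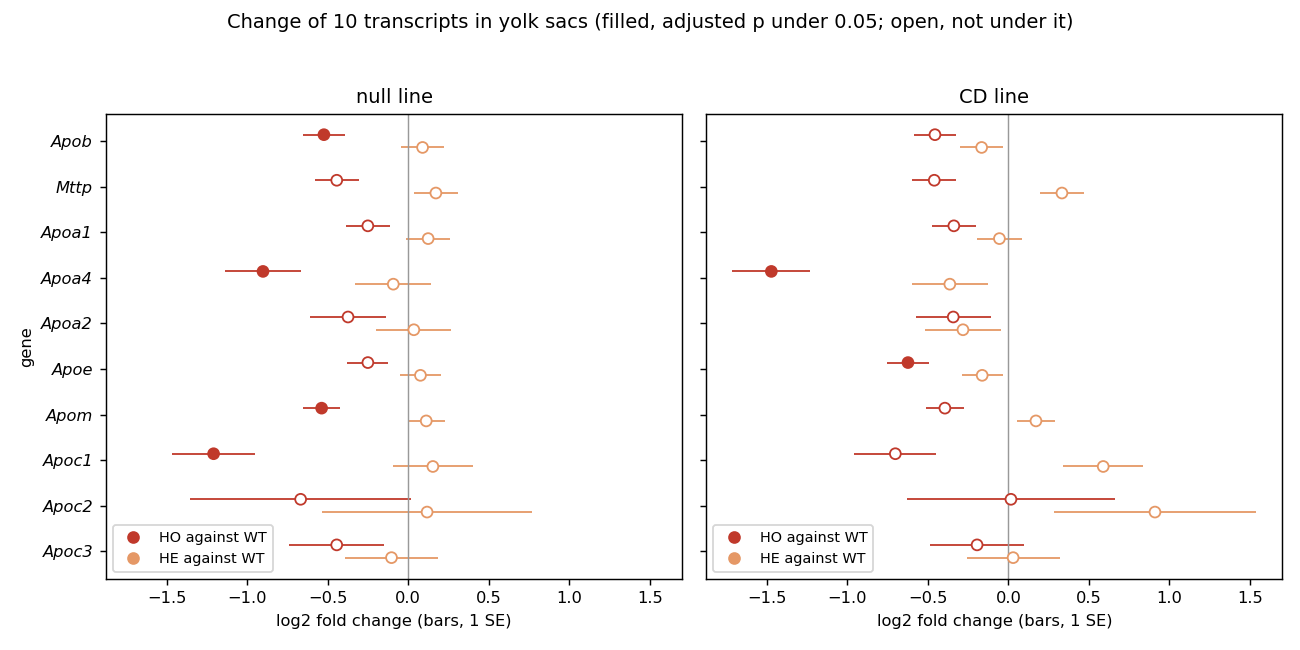
Log2 fold change of the 10 genes in yolk sacs (x axis; bars, 1 SE) for HO (red) and HE (orange) against WT in the null line (left) and the CD line (right); filled points have an edgeR adjusted p under 0.05 and open points do not. Filled points are Apoa4, Apob, Apoc1 and Apom in the null line and Apoa4 and Apoe in the CD line, and no HE point is filled.

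These calls rested on few libraries. Except for the comparison with HE, the share of all genes called in each fit below is not given. The counts of members therefore show only that the calls depended on the libraries and terms used. Leaving out 1 of the 4 libraries of the null comparison left 0 or 1 members called: Apom alone without null HO replicate 2 (edgeR adjusted p = 0.0414), Apoa4 alone without null HO replicate 1 (-1.38, edgeR adjusted p = 0.0236), and 0 without either library labelled WT. The fold changes kept their direction, between -0.57 and -0.49 for Apob, -1.35 and -1.10 for Apoc1, -0.64 and -0.47 for Apom, and -1.38 and -0.57 for Apoa4. Of the CD comparison, 5 members were called without CD HO replicate 1, 0 without CD HO replicate 2 or CD WT replicate 1, and 2 without CD WT replicate 2 (Apoa4 and Apoc1). With a term for sex, 2 members were called in the null line (Apoa4 and Apoc1) and Apoa4 alone in the CD line. Compared with the HE libraries of the null line in place of those labelled WT, 4 members were called, where 4.42% of genes were lower, 3.77% higher and 8.19% called in either direction (Apob -0.61, Apoc1 -1.36, Apom -0.65 and Mttp -0.62), while Apoa4 was at -0.81 (edgeR adjusted p = 0.0566).

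Some other visceral endoderm transcripts also fell. The summed level of 30 visceral endoderm markers that hold none of the members was 21388 to 27946 CPM in HO yolk sacs, 26037 to 34137 CPM in HE and 27593 to 31563 CPM in WT, and all 30 were above 0 in each library. The HO sums overlapped those of HE and WT. In the null line 6 of the 30 fell and 0 rose, where 3.97% of all genes fell, with 24 fold changes below 0 and a median of -0.35. In the CD line 5 fell and 0 rose, where 1.89% of all genes fell, with 20 below 0 and a median of -0.12. The 3 of smallest p in each line were F2 (prothrombin), Slc39a8 (a metal ion transporter) and Vil1 (villin, of the brush border). Slc39a8 changed by -0.83 (SE 0.15, edgeR adjusted p = 0.00826) in the null line and by -0.91 (SE 0.15, edgeR adjusted p = 0.0092) in the CD line, and Vil1 by -0.53 in each. For Afp (alpha-fetoprotein), chosen after its values were seen, the HO libraries lay on both sides of WT in each line. It had 9530 and 6618 CPM in null HO, and 8576 and 7851 CPM in the libraries labelled WT. In the CD line it had 4845 and 9580 CPM in HO, and 6056 and 6102 CPM in WT. When the libraries were scaled to the summed counts of the 30 markers, 0 members were called in the null line, where Apoa1 and Apoe turned to 0.05 each. Apoa4 alone was called in the CD line (-1.19, edgeR adjusted p = 0.0186), where Apoc3 turned to 0.04. Such a sum weighs abundant markers most, among them Cubn (9513 CPM on average in WT) and Afp (7095 CPM), by library totals. Cubn itself fell in the CD line (-0.60). How far single markers set this result was not tested.

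Markers of other cell types are given beside these. Of all genes tested, 2.3% rose and 3.97% fell in the null line, and 1.27% rose and 1.89% fell in the CD line. The 14 parietal endoderm markers summed to 6478 and 7460.1 CPM in null HO yolk sacs, against 4986 and 5000.0 CPM in the libraries labelled WT, and 5 of the 14 rose. CD libraries summed to 4826 and 5544 CPM in HO and 3973 and 4855 CPM in WT, and 1 of 14 rose. The 14 extraembryonic mesoderm markers summed to 2061 to 2342 CPM in HO, 2977 to 5180 CPM in HE and 3336 to 6654 CPM in WT. In the null line 4 of 14 were lower, with 11 fold changes below 0 and a median of -0.33. In the CD line 3 were lower, but only 6 of 14 fold changes were below 0, with a median of 0.03. Of 13 endothelial markers, 13 fold changes were below 0 in the null line (1 fell, median -0.36) and 10 in the CD line (0 fell, median -0.13). Of 10 tested macrophage and leukocyte markers, 2 fell in the null line (median -1.10) and 1 in the CD line (median -0.44), and 0 rose in either. Their part in the members' changes was not tested.

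In heterozygous yolk sacs no member was called in either line, where edgeR called 0 of 17755 genes in each comparison (0%). Without adjustment, 0 members of the null line and 2 of the CD line (Mttp and Apoc1) had a p under 0.05. Of all 17755 genes, 360 in the null line and 665 in the CD line did. The HE fold changes ran between -0.10 and 0.17 in the null line. Those of the CD line ran between -0.36 (Apoa4) and 0.91 (Apoc2), with Mttp at 0.33 and Apoc1 at 0.59.

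Whether the alleles differed in their effect was tested as the HO change of the CD line minus that of the null line. In yolk sacs edgeR called 0 of the 10 members, where 5 of 17755 genes (0.0282%) were called. An unadjusted p under 0.05 was found for 0 members and 588 genes. The difference was -0.57 for Apoa4 (SE 0.34), -0.37 for Apoe (SE 0.18) and 0.51 for Apoc1 (SE 0.36), each with an edgeR adjusted p of 1. A member called in one line and not in the other is therefore not shown to differ between them.

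Across the 12 yolk sac libraries, Apom followed the mean of the other 9 members most closely (Pearson r of log2 CPM 0.95), followed by Apoa1 (0.90), Apoc1 (0.88) and Apoe (0.85). Apob (0.79), Apoa4 (0.77) and Mttp (0.77) came next, and Apoc3 (0.49), Apoa2 (0.44) and Apoc2 (0.41) followed it least. Among 5978 other genes with a mean log2 CPM of 5 or more, those most like the mean of the 10 were Ostc (r = 0.98), Sirt2 (0.98), Neu1 (0.98), Tmed9 (0.98) and Lman1 (0.98). These correlations share the same libraries and genotypes and are given as a description.

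The rest of the pathway changed in scattered members. For each list below, the shares over the 17755 genes tested were 2.3% higher and 3.97% lower in the null line. In the CD line they were 1.27% higher and 1.89% lower. Of 36 genes of lipoprotein assembly and secretion, 35 were tested in yolk sacs. In the null line 1 rose, Lpin1, a phosphatidate phosphatase of triglyceride synthesis (1.99, SE 0.43, edgeR adjusted p = 0.0192), and 0 fell. In the CD line 1 fell, Mia3, which helps load large cargo at endoplasmic reticulum exit sites (-0.37, SE 0.09, edgeR adjusted p = 0.0492), and 0 rose. The list's medians were -0.14 and -0.06.

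Of 21 receptors and endocytic genes, 4 fell and 1 rose in null HO yolk sacs, and 2 fell and 0 rose in CD HO yolk sacs. Cd36, a fatty acid and lipoprotein receptor, changed by -1.79 in the null line (SE 0.33, edgeR adjusted p = 0.00951), and Lrp8, an ApoE receptor, by 1.38 (SE 0.27, edgeR adjusted p = 0.0121). Mylip, a ubiquitin ligase that targets lipoprotein receptors for degradation, fell in both lines (-0.60 in the null line, edgeR adjusted p = 0.00951; -0.58 in the CD line, edgeR adjusted p = 0.0203). Cubn, the cubilin receptor of the endoderm's apical surface, fell in the CD line (-0.60, SE 0.13, edgeR adjusted p = 0.0331). In the null line its HO libraries held 5640 and 6189 CPM, and those labelled WT 9643 and 8855 CPM. Its null test is not named here, so a fall in the CD line alone is not shown.

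Of 20 genes of lysosomal and intracellular cholesterol handling, 1 rose and 2 fell in the null line, and 2 rose and 0 fell in the CD line. Abca2, a lipid transporter of endosomes and lysosomes, rose in both (2.17 in the null line, SE 0.23, edgeR adjusted p = 0.00057; 1.95 in the CD line, SE 0.22, edgeR adjusted p = 0.00166). Abca1, which passes cholesterol to ApoA1, changed by -0.44 in the null line (SE 0.10, edgeR adjusted p = 0.0207), as did Npc1l1, a sterol uptake transporter, by -1.07 (SE 0.28, edgeR adjusted p = 0.0456). Abcg1, an exporter of cholesterol to high-density particles, rose in the CD line (1.79, SE 0.39, edgeR adjusted p = 0.0328).

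Among 14 genes of plasma lipoprotein remodelling, 11 were tested, and the 1 called was Lpl, lipoprotein lipase, at -1.74 in the null line (SE 0.32, edgeR adjusted p = 0.00968). In the CD line 0 of the 11 were called, and the smallest p was that of Pltp, the phospholipid transfer protein, at -1.26 (SE 0.40, edgeR adjusted p = 0.104). Of 29 endoderm and lipid regulators, 27 were tested and 2 fell in the null line: Nr1h4, the bile acid receptor, at -1.35 (SE 0.31, edgeR adjusted p = 0.0246), and Nr2f2, an orphan nuclear receptor, at -0.88 (SE 0.16, edgeR adjusted p = 0.00826). By edgeR none of the 27 was called in the CD line. An unadjusted p under 0.05 was found for 7 of them and for 3558 of 17755 genes. Among the 27, Nr2f2 had the smallest p (-0.62, edgeR adjusted p = 0.0536). Of 12 further apolipoproteins 6 were tested; Apon rose in the null line (3.94, SE 1.05, edgeR adjusted p = 0.0462) at a mean log2 CPM of -1.10, and Clu fell in the CD line (-0.93, SE 0.18, edgeR adjusted p = 0.0189).

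In embryos the members were far lower than in yolk sacs, and 7 of the 10 passed the filter on low counts. Apoe held 880 to 2682 counts per embryo library and Mttp 310 to 750. Apoa4, Apoc2 and Apoc3 did not pass and were not tested. Apoc2 had 1 count in CD WT replicate 2 and 0 elsewhere, Apoc3 had 8 counts in that library and 0 to 2 elsewhere, and Apoa4 had 22 counts there and 0 to 3 elsewhere. For the 7 tested members each library is given on its own, since 1 library carried far more of these transcripts than the rest.

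**Figure D4:**
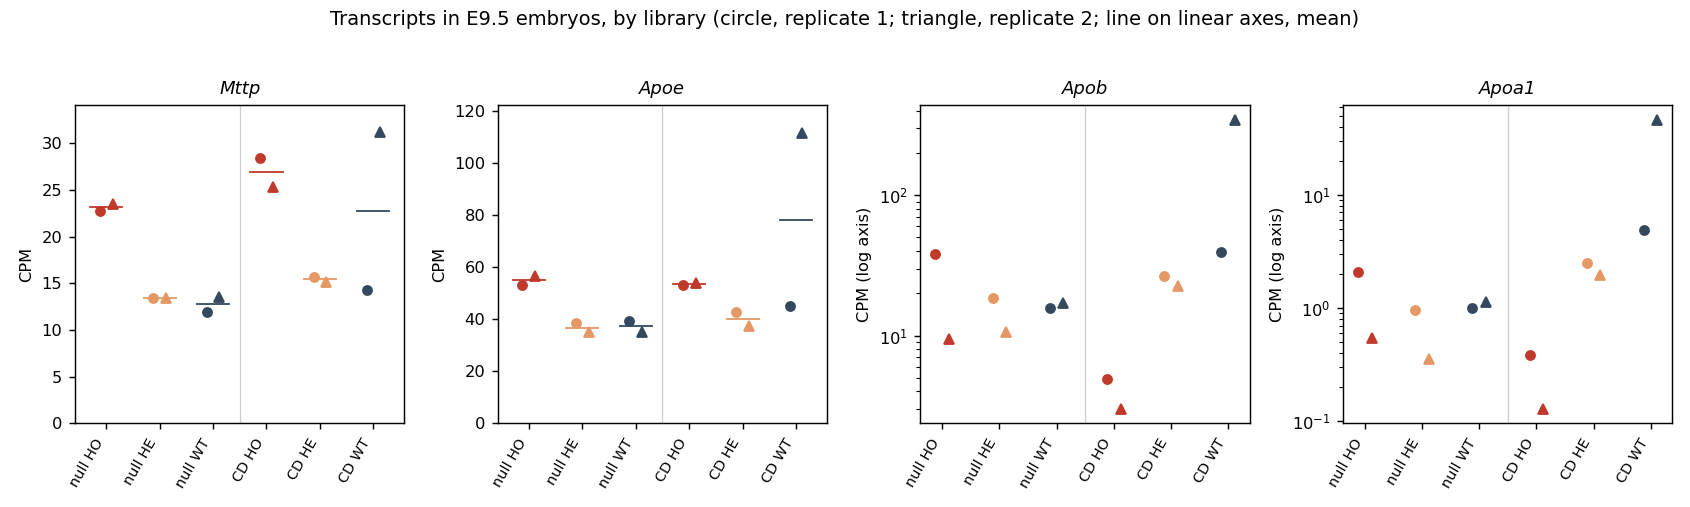
CPM of Mttp and Apoe (linear axes from 0, line at the mean of 2) and of Apob and Apoa1 (log axes) in the 12 embryo libraries (circle, replicate 1; triangle, replicate 2; red HO, orange HE, blue WT). CD WT replicate 2 is the highest point in each panel, and for Mttp and Apoe the 4 HO libraries lie above the other 7.

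Mttp rose in null HO embryos and did not pass the test in CD HO embryos. It had 22.8 and 23.5 CPM in null HO embryos, 13.4 and 13.4 CPM in HE, and 11.96 and 13.6 CPM in WT. CD embryos had 28.5 and 25.4 CPM in HO, 15.7 and 15.2 CPM in HE, and 14.3 CPM in WT replicate 1 and 31.2 CPM in WT replicate 2. Apart from CD WT replicate 2, each HO library was above each HE and WT library. Mttp rose in the null line (0.86, SE 0.25, edgeR adjusted p = 0.0205), the 1 member of 7 called there, a share close to the background, where 32.7% of 19215 genes changed and 16.2% rose. In the CD line the change was 0.25 (SE 0.24, edgeR adjusted p = 0.541) with all libraries. It was 0.90 without CD WT replicate 2 and -0.22 without CD WT replicate 1, each a fit with 1 CD WT library left. In the null line the call was lost without null HO replicate 2 (0.82, edgeR adjusted p = 0.061), null WT replicate 1 (0.77, edgeR adjusted p = 0.124) or null WT replicate 2 (0.95, edgeR adjusted p = 0.0702). Trmt10a, opposite Mttp, held 629 to 909 counts in embryos, against 310 to 750 of Mttp, and changed by -0.25 (edgeR adjusted p = 0.0646) and -0.17 (edgeR adjusted p = 0.274).

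For Apoe, too, the 4 HO libraries lay above the other libraries apart from CD WT replicate 2. With that library counted, 0 of 7 members had the 4 HO embryos above all 8 others, where 11.3% of genes did. In 0 of 7 they lay below all 8, where 13.2% of genes did. The share of genes with the looser pattern of Mttp and Apoe was not counted. Apoe had 53.2 and 56.8 CPM in null HO embryos, 38.5 and 34.96 CPM in HE, and 39.3 and 35.3 CPM in WT. CD embryos held 53.1 and 54.1 CPM in HO, 42.95 and 37.6 CPM in HE, and 45.1 CPM in WT replicate 1 and 112 CPM in WT replicate 2. Its change in the null line was 0.56 (SE 0.28, edgeR adjusted p = 0.147). CD WT replicate 2 is not part of that comparison but enters the shared spread, and when it was left out the change was 0.54 and passed (edgeR adjusted p = 0.000382). The CD change was -0.55 (SE 0.27, edgeR adjusted p = 0.202) with that library and 0.24 without it, when CD WT replicate 1 was left alone.

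Apob and Apoa1 differed in pattern from Mttp and Apoe. Apob had 38.2 and 9.47 CPM in null HO embryos, 18.5 and 10.6 CPM in HE, and 15.7 and 17.01 CPM in WT. Levels in CD embryos were 4.90 and 2.999 CPM in HO, 26.6 and 22.6 CPM in HE, and 39.4 CPM in WT replicate 1 and 347 CPM in WT replicate 2. Apoa1 had 2.08 and 0.545 CPM in null HO, 0.966 and 0.358 CPM in HE, and 1.003 and 1.14 CPM in WT, and in the CD line 0.383 and 0.129 CPM in HO, 2.51 and 1.97 CPM in HE, and 4.89 and 46.4 CPM in WT. The null HO replicates fell on either side of their WT for both genes, and the CD HO embryos held the lowest Apob of all 12 libraries.

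The other tested members were close to the detection limit. Apom had 1.85 and 0.670 CPM in null HO embryos, 0.773 and 0.834 CPM in HE, and 0.965 and 0.949 CPM in WT, and in the CD line 0.803 and 0.557 CPM in HO, 0.994 and 1.44 CPM in HE, and 2.53 and 11.3 CPM in WT. Apoa2 had 16 and 9 counts in null HO, 9 and 6 in HE, and 8 and 11 in WT, and in the CD line 12 and 5 in HO, 14 and 15 in HE, and 12 and 31 in WT. Its change in CD HO was -1.36 (SE 0.54, edgeR adjusted p = 0.11), and -2.02 to -0.50 with 1 library left out. Apoc1 had 5 and 5 counts in null HO, 7 and 4 in HE, and 6 and 5 in WT, and in the CD line 3 and 5 in HO, 7 and 4 in HE, and 13 and 19 in WT. The highest value of all 3 genes was in CD WT replicate 2.

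In CD embryos Apoa1, Apob and Apom were lower in HO than in WT, 3 of the 6 tested members other than Apoc1, where 9.14% of genes fell, 6.93% rose and 16.1% changed. Apob changed by -5.60 (SE 0.94, edgeR adjusted p = 0.00227) with all libraries. Leaving out CD WT replicate 2 gave -3.32 for it. Apoa1 changed by -6.58 (SE 1.08, edgeR adjusted p = 0.00197), and by -4.21 without that library. Apom changed by -3.33 (SE 0.63, edgeR adjusted p = 0.00471), and by -1.89 without it. These reduced fits rest on CD WT replicate 1 alone, which was itself above the null WT libraries. It had 39.4 CPM of Apob against 15.7 and 17.01 CPM, and 4.89 CPM of Apoa1 against 1.003 and 1.14 CPM. Apoc1 passed the filter on low counts through the CD WT libraries (13 and 19 counts, against 3 to 7 in every other embryo library), so it could be called lower in this comparison but not higher. Its call (-1.98, edgeR adjusted p = 0.0277), given as a description, rested on 3 and 5 counts in HO and was lost without CD WT replicate 2 (-1.66, edgeR adjusted p = 0.138). With a term for sex, which separates these groups, Apob and Apoa1 alone were called. Leaving out 1 of the 4 HO and WT libraries gave -6.44 to -3.32 for Apob and -7.59 to -4.21 for Apoa1. For Apom it gave -4.04 to -1.89.

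Levels of the visceral endoderm transcripts Cubn and Afp (alpha-fetoprotein) are set beside Apob, chosen after their values were seen. Cubn had 12.6 and 3.44 CPM in null HO embryos, 3.98 and 3.26 CPM in HE, and 3.24 and 3.72 CPM in WT. In CD embryos it had 1.80 and 2.10 CPM in HO, 6.9998 and 6.75 CPM in HE, and 16.1 and 219 CPM in WT. Afp had 8.09 and 1.68 CPM in null HO embryos, 9.47 and 8.503 CPM in HE, and 11.4 and 14.8 CPM in WT, so both HO libraries were under WT, unlike those of Apob. It had 2.22 and 0.642 CPM in CD HO, 13.5 and 12.7 CPM in CD HE, and 17.5 and 68.1 CPM in CD WT. Of 30 visceral endoderm markers, 27 were tested in embryos. In CD HO 14 were lower and 2 higher (median -1.76), where 9.14% of all genes fell and 6.93% rose. In null HO 8 were higher and 1 lower (median 0.35), where 16.2% of all genes rose and 16.5% fell. Without CD WT replicate 2, an alternative added after seeing the data, 6 were lower and 3 higher in CD HO (median -0.71), and 10 were higher and 2 lower in null HO (median 0.33). Trf (transferrin) fell in both lines, by -1.97 in the null line (edgeR adjusted p = 0.00159) and by -4.33 in the CD line (edgeR adjusted p = 4.46e-05). The summed level of the 30 was 588 to 715 CPM in HO, 370 to 442 CPM in HE and 383 to 1074 CPM in WT embryos. The 30 are not equally particular to the yolk sac. In WT embryos other than CD WT replicate 2, the mean level was 9.65% of the yolk sac's for Lrp2, among those higher in null HO. It was 0.207% for Afp and 0.0813% for Cubn. A rise in this list is therefore not shown to be a rise of visceral endoderm transcripts. The mitochondrially encoded transcripts summed to 13602 to 15324 CPM in HO, 18157 to 20606 CPM in HE and 18525 to 18834 CPM in WT. Their part in the members' changes was not tested.

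CD WT replicate 2 carried each member above the other 3 WT embryos by an amount that can be set against the yolk sac. The excess, over library totals without TMM scaling, was 0.333 to 3.77% of the mean WT yolk sac level over the 10 members (median 1.99%), and 1.69% in the median over 30 visceral endoderm markers (quartiles 0.851 and 3.33%). For Apob it was 1.83%, for Apoa1 1.97%, for Apom 2.01%, for Mttp 2.77% and for Apoe 2.94%. In the other 3 WT embryos, the mean level was 0.141% of the yolk sac's for Apob and 0.108% for Apoa1, but 2.16% for Mttp and 1.71% for Apoe.

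**Figure D5:**
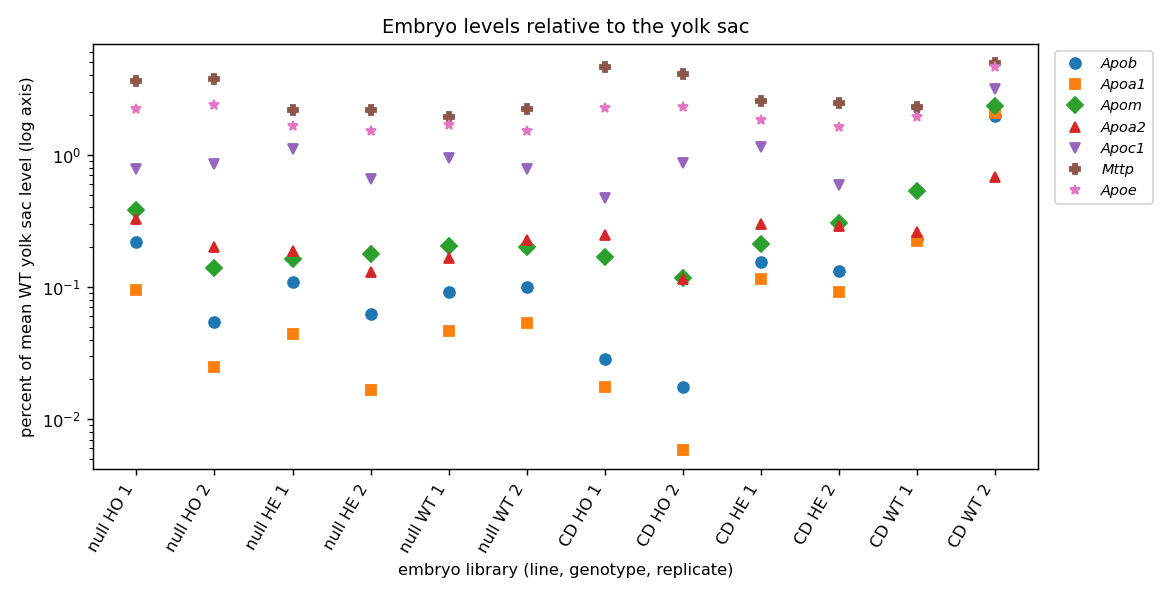
Level of 7 members in each embryo library as a percent of the mean WT yolk sac level of that gene (log axis). Apob, Apoa1 and Apom lie under 1% in the 11 libraries other than CD WT replicate 2, and Mttp and Apoe lie over 1% in all 12.

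Heterozygous embryos gave no call for the members. In the null line all 7 fold changes lay between -0.68 and 0.07 with an edgeR adjusted p of 1, where 2 of 19215 genes (0.0104%) were called, 1 in each direction (0.0052%). CD fold changes lay between -3.52 and -0.56, where 3 genes (0.0156%) were called, 1 of them lower (0.0052%). An unadjusted edgeR p under 0.05 was found for 6 of 7 members, Apoc1 among them, and for 1692 of 19215 genes. Without CD WT replicate 2, Mttp turned to 0.11 in CD HE embryos. The difference between the HO effects of the lines in embryos was called for 0 of 7 members, where 4 genes (0.0208%) were called. It was -6.15 for Apob (SE 1.23, edgeR adjusted p = 0.153) and -6.90 for Apoa1 (SE 1.61, edgeR adjusted p = 0.157). For this difference, 6 of 7 members, Apoc1 among them, had an unadjusted edgeR p under 0.05, as did 2579 of 19215 genes. Without CD WT replicate 2 the difference was -3.85 for Apob and -4.50 for Apoa1.

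More genes of the pathway lists were called in embryos than in yolk sacs, as were more of all genes. Of the 19215 genes tested, 16.2% rose and 16.5% fell in null HO embryos. In CD HO embryos 6.93% rose and 9.14% fell. Each list count below stands against these shares, and whether a list differed from them was not tested. The CD counts and fold changes below include CD WT replicate 2 unless it is said to be left out. Fits without it rest on CD WT replicate 1 alone, assumed to vary like the other groups. The shares of all genes called in those fits are not given. Of 21 receptors and endocytic genes, 8 rose and 2 fell in null HO embryos and 4 rose and 4 fell in CD HO embryos. Vldlr, a receptor for ApoE-rich particles, rose in both lines (1.63 in the null line, SE 0.22, edgeR adjusted p = 0.000191; 0.92 in the CD line, SE 0.21, edgeR adjusted p = 0.0124), and Lrp2, megalin, rose in the null line (1.34, SE 0.15, edgeR adjusted p = 6.87e-05). Sorl1, a sorting receptor, rose in the null line (0.50, edgeR adjusted p = 0.000465), and Cubn fell in the CD line (-5.91, edgeR adjusted p = 0.00283), by less without CD WT replicate 2 (-3.06, edgeR adjusted p = 0.00144). Without that library the receptor genes of the CD line gave 6 higher and 2 lower.

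Of 20 lysosomal and intracellular cholesterol genes, 11 rose and 2 fell in the null line and 4 rose and 1 fell in the CD line. Lipa, the lysosomal acid lipase, rose in both (0.53, SE 0.06, edgeR adjusted p = 9.5e-05; 0.42, SE 0.06, edgeR adjusted p = 0.00127), as did the lysosomal protease gene Ctsd (0.58 in each line). Of 32 tested genes of assembly and secretion, 6 rose and 4 fell in the null line, among them Soat1, which esterifies cholesterol (0.80, edgeR adjusted p = 0.000236), Lpin1 (1.04, edgeR adjusted p = 0.000948) and Mia2 (0.39, edgeR adjusted p = 0.000953). In the CD line 1 rose and 5 fell, among them the fatty acid binding protein gene Fabp1 (-4.41, SE 0.996, edgeR adjusted p = 0.0113). With CD WT replicate 2 left out, the CD counts were 3 higher and 0 lower for the lysosomal genes and 1 higher and 5 lower for assembly and secretion, with Fabp1 at -4.61 (edgeR adjusted p = 0.0194). In the null line, where it enters the shared spread, assembly and secretion then had 7 higher and 7 lower.

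Of 12 tested genes of plasma lipoprotein remodelling, 1 rose and 2 fell in the null line, and 0 rose and 1 fell in the CD line. Angptl4, an inhibitor of lipoprotein lipase, fell in both (-1.75, SE 0.16, edgeR adjusted p = 1.81e-05; -1.27, SE 0.17, edgeR adjusted p = 0.00044). Of 26 tested regulators, 7 rose and 2 fell in the null line and 3 rose and 1 fell in the CD line. Foxa2, a factor of gut endoderm and floor plate, rose in the null line (1.19, edgeR adjusted p = 0.000277), and Hnf4a, a factor of visceral endoderm and liver, was the 1 that fell in the CD line (-3.93, SE 0.71, edgeR adjusted p = 0.00353). With CD WT replicate 2 left out, Hnf4a was at -2.79 (edgeR adjusted p = 0.0132), and 2 regulators rose and 2 fell in the CD line. Clu, a secreted apolipoprotein of another family, rose in both lines (0.80, edgeR adjusted p = 0.00174; 0.49, edgeR adjusted p = 0.0429), 1 of 7 further apolipoproteins tested, and its CD call was lost without CD WT replicate 2 (0.58, edgeR adjusted p = 0.0549). Of 13 remodelling genes then tested, 0 rose and 2 fell in the CD line.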

How the data were processed

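The authors deposited 1 table per tissue with whole-number counts per gene and FPKM values for each library. Per the labels' protocols, RNA was extracted with TRIzol and the kit was KAPA mRNA HyperPrep. The submitters' processing notes name fastp 0.22.0, HISAT2 2.2.1, featureCounts 2.0.1, DESeq2 1.32.0 and the mm10 build, with no role or order. The deposited FPKM could be rebuilt from the counts with the lengths and totals in the tables, and was used only to compare genes. CPM was computed as count divided by total times the TMM factor within a tissue.

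Counts were tested with edgeR 4.0.16 (quasi-likelihood F-test, TMM, filterByExpr with a minimum count of 10 and a minimum total of 15) in R 4.3.3, on all 12 libraries of a tissue with 6 groups, or on all 24 for yolk sac against embryo. P-values were adjusted by Benjamini-Hochberg over all genes tested, with a threshold of 0.05. Fold changes are log2. Tests were tried on simulated data. Other settings included DESeq2 1.42.0 size factors, no filter, leaving out each library, a sex term and scaling to visceral endoderm markers. The members and gene lists were chosen with earlier results of these data known. Named are Setd2, the 10 members and, of each pathway list and the visceral endoderm markers, up to 3 genes of smallest p among those called in a homozygous comparison (1 where none was called), and the 5 genes most like the members' mean. One gene that this rule names is not reported here. Genes overlapping the members, and Cubn and Afp by library, were added after their values were seen. Few reads limit the embryo values of most members.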

Additional observations from a re-analysis of the deposited data

Results flagged for a closer look

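In the 4 WT embryos, 1 library stood far from the other 3 for 7 of the 10 genes, and in each case it was CD WT replicate 2, the highest. The gap to the nearest library as a share of the whole range was 0.914 for Apoa1, 0.869 for Apoa4, 0.928 for Apob, 1 for Apoc2, 0.871 for Apoe, 0.848 for Apom and 0.880 for Mttp, above Dixon's critical value at the 95% level. The Apoc2 value rests on 1 count against 0. The 7 genes share the same 4 libraries and are not independent, and this library also stood apart by other visceral endoderm transcripts. Chance flags about 1 in 20 independent groups, which these are not. Of 20 groups of 4 WT libraries examined, the 7 were all in embryos.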

How the results depend on the processing

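The main limits are 2 libraries per group and 6 residual degrees of freedom. The counts of members called under other settings stand without the share of all genes called in the same fit. A larger count is therefore not by itself a stronger result for the members. The 7 members tested in embryos stayed higher in WT yolk sacs than in WT embryos under each setting tried. For null HO yolk sacs the 4 calls became 2 with a sex term and 0 with scaling to visceral endoderm markers. For CD HO yolk sacs the 2 calls became 5 with DESeq2, 7 with no filter, and 1 with the compared groups alone, with a sex term or with marker scaling. For null HO embryos the 1 call became 3 with no filter, 2 with the compared groups alone and 2 without CD WT replicate 2, a setting added after seeing the data. For CD HO embryos the 4 calls became 2 with a sex term. For CD HE embryos the 0 calls became 1 with DESeq2 and 5 with no filter, and for the difference between the lines in embryos 3 with DESeq2 and 5 with no filter. The cause was not tested.

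Leaving out 1 library at a time gave 0 to 1 calls for null HO yolk sacs, 0 to 5 for CD HO yolk sacs, 0 to 2 for null HO embryos, 2 to 6 for CD HO embryos, 0 to 6 for CD HE embryos and 0 to 5 for the difference between the lines in embryos. An arm left with 1 library is assumed to vary like the other groups.

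Directions turned for members that were not called. In null HO embryos a sex term gave -0.0058 for Apoa1, -0.0050 for Apob, 0.19 for Apoc1 and -0.20 for Apom. Leaving out 1 library there gave -0.97 to 0.94 for Apoa1, -0.79 to 1.20 for Apob, -0.51 to 0.93 for Apom and -0.20 to 0.075 for Apoc1. In CD HO embryos it gave -0.22 to 0.90 for Mttp and -1.06 to 0.24 for Apoe. In yolk sacs it gave -1.92 to 0.0078 for Apoc2 in the null line, and -1.21 to 0.61 for Apoc2 and -0.39 to 0.026 for Apoc3 in the CD line. Marker scaling gave 0.051 for Apoa1 and 0.052 for Apoe in the null line and 0.045 for Apoc3 in the CD line.

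Replicate numbers were shared by all groups, with correlations of -0.20 to 0.31 between the deviations of same-numbered libraries. In yolk sacs they ran from -0.02 to 0.31 within a line and from -0.20 to 0.02 across lines. In embryos they ran from -0.04 to 0.12 within a line and from -0.19 to 0.07 across lines. These values cannot show whether a number marks a litter or batch, and the libraries were treated as unpaired. With a replicate block, 4 members were called in null HO yolk sacs and 2 in CD HO yolk sacs, and Apoc2 was at -0.094 in the CD line.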
